A study of Mus musculus with 48 samples.

Results

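The 10 genes described here carry the interleukin-1 (IL-1) pathway and its inflammasome: the ligands Il1b and Il1a, the receptor antagonist Il1rn, the receptors Il1r1, Il1r2 and Il1rap, the sensor Nlrp3, the caspases Casp1 and Casp4, and the related cytokine Il18. They were chosen by symbol. All 10 were among the 20300 genes of the table of mixed tumor cells and among the 14363 genes of the table of CD11b+ cells. Their levels were followed in neutrophil-like, macrophage-like, microglia-like, T-like and tumor-like cells, which were gated on marker genes that include none of the 10.

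The study compared GL261 tumors, a mouse glioblastoma line grown in the brain of C57BL/6 mice, that carried an shRNA to P-selectin (shSELP) with tumors that carried a negative control shRNA (shNC). The mix held CD11b+ cells, the remaining CD45+ cells and the rest of the cell suspension, which included the cancer cells, in equal amounts. It was taken 16 days after inoculation per the labels, in 2 shNC and 2 shSELP libraries. The study states that the mix does not show how cell types were distributed in the tumors. Shares of cells and UMIs below are therefore shares of the mix. The CD11b+ set held magnetically sorted myeloid cells of day 21 in 1 shNC library (replicate 1) and 1 shSELP library (replicate 2). Each library was loaded as 8 sequencing entries and was treated as 1 sample. The study's methods name 6-week-old male mice, a pool of 3 brains per group and day 17 for both sets, and a later version of the library kit than the labels do. In 7 of the 8 entries of the CD11b+ shSELP library a description line names the negative control, while the title and the genotype field name the knockdown. The shRNA was in the injected tumor line. Selp itself gave 1, 1, 0 and 0 UMIs (unique transcript counts) in the tumor-like cells of shNC replicates 1 and 2 and shSELP replicates 1 and 2, so the knockdown was not detectable at this depth.

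The deposited cells held 22945972 and 22626413 UMIs in the shNC libraries of the mix (2289 and 2297 cells) and 17398121 and 25589350 UMIs in the shSELP libraries (2293 cells each). The CD11b+ libraries held 12628177 UMIs (shNC) and 11445676 UMIs (shSELP) in 2862 cells each. Median UMIs per kept cell were 9547, 8051, 6164 and 9879.5 in the mix and 4209 and 3737 in the CD11b+ set. In the mix 5 cell barcodes occurred in more than 1 library, and in the CD11b+ set 3 did. Values per library are given for shNC replicates 1 and 2 and then shSELP replicates 1 and 2, and levels are in CPM, the UMIs of a gene relative to all UMIs of a class in a library.

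IL-1 beta and IL-1 alpha are inflammatory cytokines that signal through a shared receptor made of Il1r1 and the accessory chain Il1rap. Il1rn encodes a secreted antagonist that occupies this receptor without signalling, and Il1r2 encodes a decoy that binds the ligands without passing a signal. IL-1 beta and IL-18 are made as precursors that caspase-1 cleaves in the NLRP3 inflammasome, so RNA levels give the supply of precursor and not the release of active cytokine.

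The panel levels below describe the gated cells and do not test the gate, which used the same markers. Of 8726 kept cells of the mix, 3394 were macrophage-like (1004, 874, 614 and 902 per library), 1780 T-like (447, 453, 416 and 464), 713 tumor-like (309, 220, 72 and 112), 479 microglia-like (57, 74, 248 and 100) and 61 neutrophil-like (7, 11, 25 and 18). The median cell of the neutrophil-like class had a depth-scaled level of 801 for its own 8-gene panel, against 0.402 in macrophage-like cells, 0.634 in microglia-like cells and 0 in T-like and tumor-like cells. The macrophage panel stood at a median of 115 in its own class, 9.10 in microglia-like, 7.94 in neutrophil-like, 3.18 in tumor-like and 0 in T-like cells. The microglia panel stood at 30.5 in its own class, 1.55 in macrophage-like cells and 0 in the other 3. Medians of the T and tumor panels were 57.2 and 23.0 in their own classes and 0 in every other one of the 5. The gate's lead was under 0.1 in 124 macrophage-like, 71 tumor-like, 42 microglia-like, 12 T-like cells and 1 neutrophil-like cell, and 689 cells stayed ungated. The neutrophil-like cells of the libraries were unlike in their markers: S100a8 stood at 109848, 8684, 130213 and 83159 CPM, and the 11 cells of shNC replicate 2 were the low ones. Cell types were uneven too, since shSELP replicate 1 held 349 endothelial-like cells against 21, 33 and 75 in shNC replicates 1 and 2 and shSELP replicate 2.

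Il1b, the ligand that caspase-1 matures, was highest in macrophage-like and neutrophil-like cells among the 5 classes. In macrophage-like cells it stood at 8875, 7785, 9359.8 and 9408 CPM, which made 92.4% of all Il1b UMIs of the mix from 38.9% of its cells. In neutrophil-like cells it stood at 8189, 10626, 3572 and 9020.2 CPM, and the 25 cells of shSELP replicate 1 were the low library; this class held 0.293% of Il1b UMIs. Outside the 5 classes, cDC2-like cells (3174 to 7748 CPM) overlapped the neutrophil-like cells. Basophil-like cells (10263 to 14291 CPM in 3 libraries) lay above every macrophage-like library and overlapped the neutrophil-like cells only at their highest library. Microglia-like cells, at 1517, 1415, 938 and 667 CPM, lay below every macrophage and neutrophil value. By means over libraries (SD, n = 4) the order was macrophage-like (8857 ± 754) and neutrophil-like (7852 ± 3027), which overlapped, then microglia-like (1134 ± 401), T-like (146 ± 54.9) and tumor-like (30.8 ± 18.4), with no further overlap between neighbours.

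The share of cells with an Il1b UMI followed the same order. After each cell was thinned to 2000 UMIs, 93.7% of macrophage-like, 69.4% of neutrophil-like and 42.9% of microglia-like cells had one, against 7.68% of T-like and 6.55% of tumor-like cells, where free RNA and doublets can add counts. Thinning kept 1, 3, 18 and 14 of the neutrophil-like cells, so that the thinned shares of this class rest on 36 cells, most of them from shSELP. Without thinning the shares were 95.8%, 83.6%, 56.2%, 18.5% and 30.2%, at median depths of 12028, 2147, 8149, 5935.5 and 13725 UMIs. Macrophage-like cells carried Il1b broadly: the 10% of cells with most of it held between 17.0% and 18.9% of a library's Il1b UMIs. In T-like cells those 10% held 85.8%, 96.6%, 99.4% and 83.2%, so few cells carried nearly all of it. In microglia-like cells they held 42.1%, 46.6%, 54.95% and 67.0%.

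Il1a, the ligand that needs no cleavage by caspase-1 to bind the receptor, had another order. Microglia-like cells stood at 1593, 1117, 1486 and 1235 CPM and macrophage-like cells at 905, 858, 1051 and 1037 CPM. The lowest microglia library lay above the highest macrophage library, with means of 1358 ± 219 and 963 ± 96.1 (SD, n = 4). Neutrophil-like cells ranged widely, at 353, 1905, 58.0 and 1445 CPM, and overlapped both. T-like (21.1 ± 9.27) and tumor-like cells (9.62 ± 8.43) overlapped each other at the low end. Thinned, 72.0% of microglia-like and 57.2% of macrophage-like cells had an Il1a UMI, against 1.82% of T-like cells. For every 100 Il1b UMIs there were 105, 79.0, 158 and 185 Il1a UMIs in microglia-like cells and 10.2, 11.02, 11.2 and 11.02 in macrophage-like cells.

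**Figure D1:**
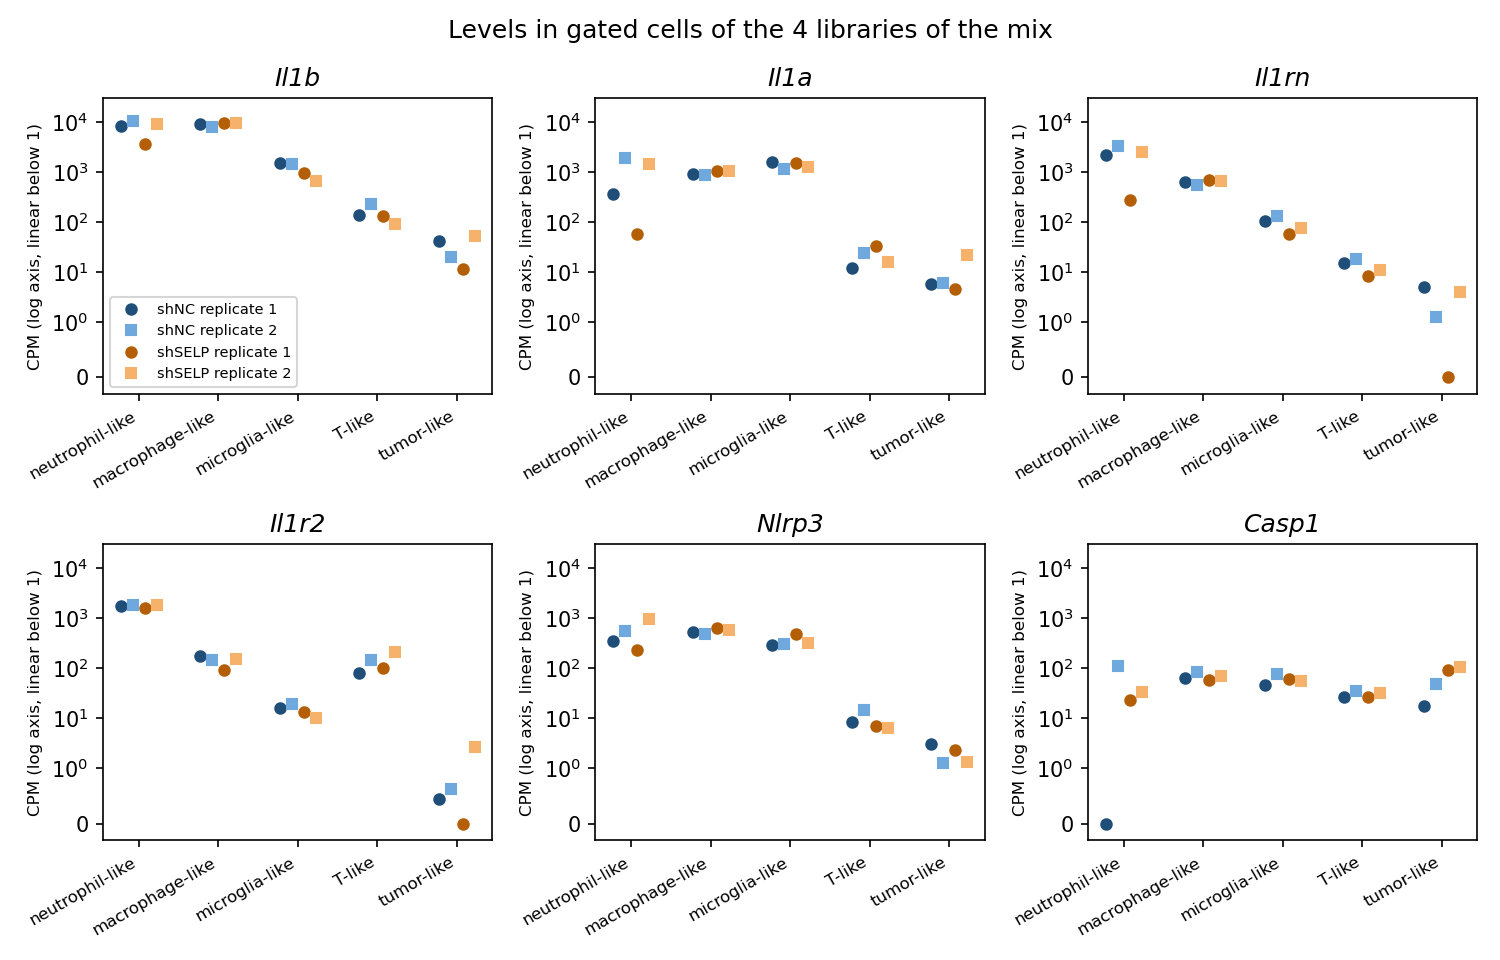
Levels of 6 of the 10 genes in CPM (log axis, linear below 1) in 5 gated classes, 1 point per library of the mix, with shNC in blue and shSELP in orange. Il1b stood between 7785 and 9408 CPM in macrophage-like cells and at or below 1517 CPM in microglia-like cells, while Il1a was higher in microglia-like cells and Il1r2 was highest in neutrophil-like cells (1589 to 1869 CPM).

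Like Il1b, the receptor antagonist Il1rn was highest in neutrophil-like and macrophage-like cells among the gated classes followed here. Neutrophil-like cells stood at 2188, 3224, 278 and 2459 CPM and macrophage-like cells at 631, 552, 675 and 655 CPM. The low neutrophil library was again shSELP replicate 1, which alone lay below the macrophage values. Microglia-like cells (105, 129.8, 57.1 and 74.0 CPM) came next, then T-like (13.1 ± 4.24, SD, n = 4) and tumor-like cells (2.51 ± 2.27), with no overlap from macrophage-like cells downward. Thinned, 58.3% of neutrophil-like, 56.4% of macrophage-like and 11.1% of microglia-like cells had a UMI, against 1.76% of T-like cells. Outside these classes some cells with much Il1b had little Il1rn. In cDC2-like cells the means were 5376 CPM for Il1b and 72.3 CPM for Il1rn (n = 4). In basophil-like cells they were 12167.5 and 37.2 CPM (n = 3), with 1 Il1rn UMI in all.

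Summed over the macrophage-like cells of the mix, the antagonist kept a nearly fixed proportion to its ligand. There were 7.12, 7.09, 7.21 and 6.96 Il1rn UMIs per 100 Il1b UMIs in the 4 libraries. In the states of these cells described further below, the value ran from 5.51 to 9.80. Neutrophil-like cells held 26.7, 30.3, 7.79 and 27.3 per 100, so that 3 of 4 libraries stood above every macrophage value by a wide margin and shSELP replicate 1 by a narrow one. Microglia-like cells held 6.91, 9.17, 6.09 and 11.1 per 100.

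Il1r1, the signalling receptor, was nearly absent from the classes that make the ligands. It gave 284 UMIs in the whole mix: 32 in macrophage-like, 27 in T-like, 1 in microglia-like and 0 in neutrophil-like and tumor-like cells. A count of 0 allows up to 16.0 CPM in the neutrophil-like cells and up to 0.320 CPM in the tumor-like cells. T-like cells stood at 1.97 ± 0.123 CPM (SD, n = 4), above macrophage-like cells (0.757 ± 0.367) without overlap. Over all libraries together, vascular and stromal cells held most of it: 151 UMIs (53.2%) came from endothelial-like cells, which were 5.48% of all cells, 31 from mural-like and 27 from fibroblast-like cells. Of the 478 endothelial-like cells 349 came from shSELP replicate 1, with 1624245 of their 2453333 UMIs of all genes. The pooled share thus rests mainly on that library. Endothelial-like cells stood at 98.4, 8.88, 68.3 and 53.0 CPM, where the low value rested on 2 UMIs in 33 cells. Over all libraries the level was 61.5 CPM in endothelial-like, 59.3 in mural-like and 68.8 in fibroblast-like cells, and thinned shares were 7.90%, 9.57% and 10.5% against 0.352% of T-like cells. The number of endothelial-like cells differed between libraries, as given above, so a comparison of Il1r1 between the tumors was not made.

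Il1rap, the accessory chain of the receptor, was clearest outside the myeloid classes. Tumor-like cells stood at 32.1, 34.9, 45.8 and 32.7 CPM, above every library of macrophage-like (7.76 ± 0.789, SD, n = 4), microglia-like (6.12 ± 0.405) and T-like cells (6.07 ± 1.23), which overlapped each other. Neutrophil-like cells had 0, 0, 69.6 and 99.7 CPM from 12 UMIs in all. Oligodendrocyte-like cells had the highest level, 222, 265, 166 and 167 CPM, from 145 UMIs in 67 cells. Tumor-like cells thus held Il1rap with no Il1r1 UMI.

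Il1r2, the decoy receptor, was highest in neutrophil-like cells among the 5 classes. They stood at 1765, 1869, 1589 and 1794 CPM, a narrow range that included shSELP replicate 1, and held 2.59% of its UMIs. Outside the 5 classes, cDC2-like dendritic cells (842 to 1783 CPM) overlapped them. Macrophage-like cells stood at 173, 147, 92.8 and 152 CPM and T-like cells at 81.5, 146, 98.4 and 215 CPM, and these overlapped. Microglia-like (14.7 ± 3.99, SD, n = 4) and tumor-like cells (0.920 ± 1.16) lay below them without overlap. Thinned, 88.9% of neutrophil-like, 18.8% of macrophage-like and 12.6% of T-like cells had a UMI, against 2.00% of microglia-like and 0.319% of tumor-like cells, so that T-like cells had it more often than the classes with least.

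Within T-like cells Il1r2 was mostly found in Cd4 cells. Those with a Cd4 UMI and no Foxp3 or Cd8 UMI stood at 248, 398, 190 and 427 CPM (459 cells). Those with a Foxp3 UMI, a mark of regulatory T cells, stood at 104, 148, 371 and 178 CPM (195 cells). Those with a Cd8a or Cd8b1 UMI stood at 36.7, 41.5, 18.98 and 33.9 CPM (886 cells), below every library of the other groups.

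Nlrp3, which senses damage and assembles the inflammasome, was a myeloid transcript with much overlap between classes. Macrophage-like cells stood at 524, 472, 631 and 587 CPM, neutrophil-like cells at 353, 549.6, 232 and 963 CPM and microglia-like cells at 290.0, 299, 472 and 313 CPM. Each of these overlapped its neighbour, and T-like (9.11 ± 3.84, SD, n = 4) and tumor-like cells (1.99 ± 0.885) lay far below. Thinned, 57.4% of macrophage-like and 45.8% of microglia-like cells had a UMI, against 1.35% of T-like cells.

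The caspases had UMIs in all 5 classes. Casp1, which cleaves the precursors of IL-1 beta and IL-18, stood at 68.8 ± 11.02 CPM (SD, n = 4) in macrophage-like, 66.9 ± 41.3 in tumor-like, 59.6 ± 12.1 in microglia-like, 41.6 ± 47.6 in neutrophil-like and 29.7 ± 4.34 in T-like cells, and all neighbours overlapped. Casp4, the mouse caspase that responds to bacterial lipopolysaccharide inside cells, stood at 228 ± 101 CPM in neutrophil-like, 119 ± 32.5 in tumor-like, 107 ± 25.96 in microglia-like and 99.0 ± 10.8 in macrophage-like cells, each overlapping the next, and at 54.5 ± 5.04 in T-like cells. Thinned shares of Casp4 were 21.8% of microglia-like, 18.4% of macrophage-like, 17.7% of tumor-like and 10.9% of T-like cells, and what part of these came from free RNA was not measured.

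Il18, the other cytokine that caspase-1 matures, was low and even in the phagocytes. Microglia-like cells stood at 51.3, 51.7, 39.9 and 43.0 CPM and macrophage-like cells at 34.0, 46.0, 44.9 and 42.2 CPM, which overlapped each other. Neutrophil-like cells (20.4 ± 17.5, SD, n = 4, from 4 UMIs) overlapped macrophage-like but not microglia-like cells. Tumor-like cells stood at 6.17 ± 1.89 CPM, and T-like cells at 2.01 ± 0.429 CPM, below every tumor-like library, while the neutrophil-like range, which began at 0, overlapped both. Thinned shares were 8.22% of microglia-like and 7.94% of macrophage-like cells, against 0.293% of T-like cells.

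Macrophage-like cells were further divided into states by panels of marker genes, and levels are given for 4 of these states. Il1b was highest in the Nos2/Inhba state (inducible nitric oxide synthase and activin A) in 4 of 4 libraries, at 12888 ± 580 CPM (SD, n = 4), with no overlap with the Ly6c2/Ccr2 state of monocyte markers (10211 ± 871), which in turn lay above the Dnase1l3/Ms4a7 state (7259 ± 1033) without overlap. The Gpnmb state of lipid-handling genes was lowest in 4 of 4 libraries, at 4750.0 ± 557 CPM. Il1rn had its lowest level in the same Gpnmb state in 4 of 4 libraries (315 ± 20.9) and its highest mean in the Nos2/Inhba state (1066 ± 154), which overlapped the Ly6c2/Ccr2 state (893 ± 45.3).

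Il1a did not share that order. Its lowest state was Ly6c2/Ccr2 in 4 of 4 libraries, at 431 ± 89.9 CPM (SD, n = 4), while the Nos2/Inhba (1249 ± 84.3), Gpnmb (1102 ± 294) and Dnase1l3/Ms4a7 (812 ± 124) states each overlapped the next. The monocyte-marked state was the high one for 4 other members: Il1r2 at 294 ± 33.7 CPM, Casp4 at 170 ± 37.5, Il18 at 80.6 ± 24.1 and Casp1 at 87.2 ± 9.78. For Casp4 and Il18 it was highest in 4 of 4 libraries and for Il1r2 and Casp1 in 3 of 4, and for all 4 genes its range overlapped that of the next state. Il18 in this state was 95.1, 102, 78.3 and 47.6 CPM, while the mean in the other 3 lay between 34.2 and 41.3. Nlrp3 in the Nos2/Inhba state (694 ± 28.7) lay above every library of the other 3, which overlapped each other. Il1r1 and Il1rap had too few UMIs for an order.

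**Figure D2:**
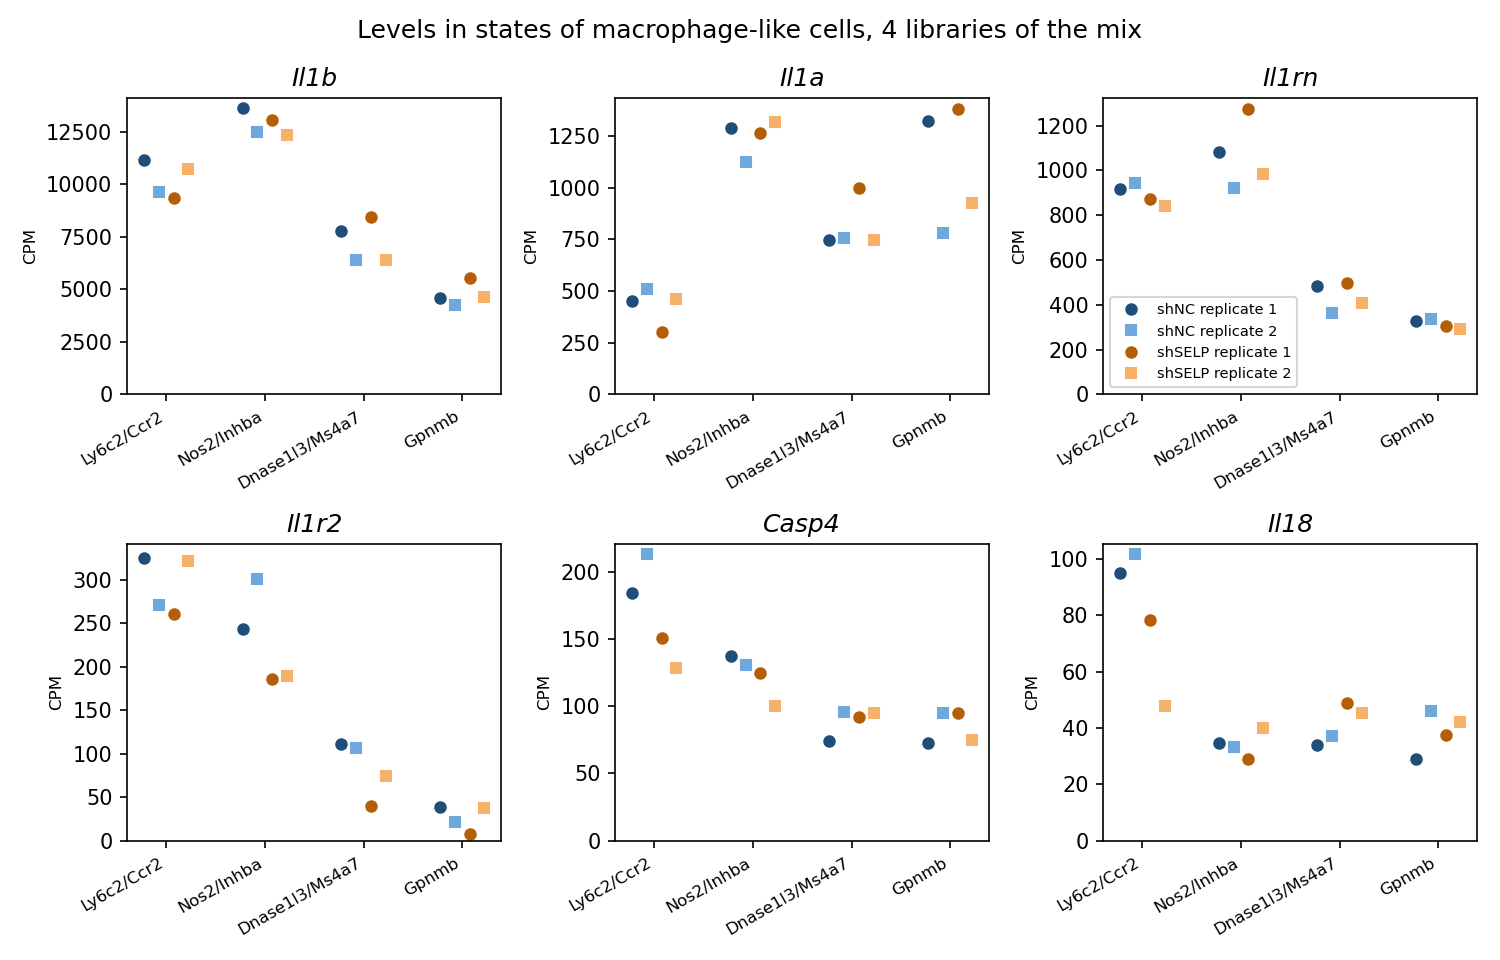
Levels of 6 of the 10 genes in CPM in 4 states of macrophage-like cells, 1 point per library of the mix, with shNC in blue and shSELP in orange. Il1b was highest in the Nos2/Inhba state (12367 to 13639 CPM) and lowest in the Gpnmb state (4248 to 5545 CPM), while Il1a was lowest in the Ly6c2/Ccr2 state (302 to 509 CPM).

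Class differences were tested within libraries with edgeR (quasi-likelihood F test, Benjamini-Hochberg over all genes tested, library as a block). Sums of neutrophil-like, macrophage-like and microglia-like cells were in the same fit, so the few neutrophil-like cells also bear on the spread used for microglia-like against macrophage-like cells. Between neutrophil-like and macrophage-like cells, 3 of 8 tested members were called, all higher in neutrophil-like cells, in a comparison where 24.7% of 7143 genes were called (497 higher and 1265 lower) and the median gene stood at −0.63. Il1r2 was higher by a log2 fold change of 3.41 (SE 0.23, adjusted p = 6.65e-23), Il1rn by 1.06 (SE 0.30, adjusted p = 0.00529) and Casp4 by 0.84 (SE 0.33, adjusted p = 0.0471). The fold of Il1b was −0.59 (SE 0.35, adjusted p = 0.221), close to the median of all genes. Il1r2 was called in every set of libraries. The call of Il1rn was lost without shNC replicate 2 (0.69, adjusted p = 0.0767) and without shSELP replicate 2 (0.59, adjusted p = 0.249). The call of Casp4 was lost without shNC replicate 1 (adjusted p = 0.0721), shNC replicate 2 (adjusted p = 0.0888) or shSELP replicate 2 (0.28, adjusted p = 0.686), from 38 UMIs in 61 cells. Without shNC replicate 2 Il1a was called in place of these, and with no filter on low counts Il1b and Il1rap were called beside Il1r2 and Il1rn while Casp4 was not.

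Between microglia-like and macrophage-like cells, 4 of 8 tested members were called, all lower in microglia-like cells, where 45.6% of 7143 genes were called (1679 higher and 1578 lower). The decoy Il1r2 was lower (−3.34, SE 0.27, adjusted p = 1.52e-19), as were Il1b (−3.08, SE 0.38, adjusted p = 2.26e-11), Il1rn (−2.99, SE 0.30, adjusted p = 5.78e-15) and Nlrp3 (−0.77, SE 0.24, adjusted p = 0.00579). Il1a, with the reverse order of levels, had a fold of 0.44 (SE 0.32, adjusted p = 0.273) and was not called. It was called with classes given by the majority of a cell's cluster (0.39, adjusted p = 0.00367). Without shSELP replicate 2 the adjusted p of Nlrp3 was 0.0585.

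The comparison of the study, shSELP against shNC, was made per class on the 2 and 2 libraries of the mix with edgeR. In macrophage-like cells none of 9 tested members was called by edgeR or by DESeq2 (0 and 0), and 2 reached an unadjusted p under 0.05 in edgeR, as did 1444 of all 11138 genes. In this class 0.171% of 11138 genes were called and 44.7% had libraries that did not overlap between the groups. Both ligands, the antagonist and the sensor had both shSELP libraries above both shNC libraries, which made 4 of 9 members, all in this direction, where 1818 of all genes were higher without overlap and 3160 lower. Nlrp3 stood at 524 and 472 against 631 and 587 CPM (log2 fold change 0.32, SE 0.10, adjusted p = 0.276) and Il1a at 905 and 858 against 1051 and 1037 CPM (0.28, SE 0.09, adjusted p = 0.285). The folds were 0.21 (SE 0.11, adjusted p = 0.491) for Il1b and 0.20 (SE 0.11, adjusted p = 0.495) for Il1rn. Il1r2 had a fold of −0.34 (SE 0.23, adjusted p = 0.590) and was low in shSELP replicate 1; without shSELP replicate 2 it was called (−0.78, adjusted p = 0.000907).

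In microglia-like cells Il1b fell. It stood at 1517 and 1415 CPM in the shNC libraries and at 938 and 667 CPM in the shSELP libraries, means of 1466 ± 72.2 and 803 ± 192 (SD, n = 2). It was lower in both shSELP libraries than in either shNC library. The log2 fold change was −0.91 (SE 0.17, adjusted p = 0.0177 by edgeR and 0.000848 by DESeq2). It was the 1 of 8 tested members called, where 0.333% of 6913 genes were called (9 higher and 14 lower).

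Other members of the pathway in microglia-like cells did not pass the main test. More members were called with the replicate block, with no filter or without top doublet scores. The antagonist Il1rn stood at 105 and 129.8 against 57.1 and 74.0 CPM (−0.94, SE 0.22, adjusted p = 0.0786). Casp4 stood at 107 and 70.0 against 122 and 128 CPM (0.50, SE 0.22, adjusted p = 0.334) and Nlrp3 at 290.0 and 299 against 472 and 313 CPM (0.38, SE 0.20, adjusted p = 0.439). In all, 6 of 8 members had libraries that did not overlap between the groups (Il1b, Il1rn, Il1r2 and Il18 lower and Casp4 and Nlrp3 higher in shSELP), against 42.6% of all genes tested. Il1a, at 1593 and 1117 against 1486 and 1235 CPM, overlapped (−0.03, SE 0.18, adjusted p = 0.964).

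The call of Il1b in microglia-like cells depended on which cells were taken. Without shSELP replicate 2 the fold was −0.70 (adjusted p = 0.127), with a stricter gate −0.68 (adjusted p = 0.0801), with cells thinned to 2000 UMIs −0.69 (adjusted p = 0.429) and with the cluster gate −0.33 (adjusted p = 0.360). The microglia-like cells fell mainly into a pair of clusters, one of which (29, 28, 165 and 49 cells) made most of the shSELP cells. In it Il1b stood at 1007, 810.5, 577 and 406 CPM (−0.91, adjusted p = 0.178). In the next (22, 35, 68 and 30 cells) it stood at 1502, 1822, 1765 and 982 CPM (−0.29, adjusted p = 0.822). These tests within clusters were chosen after seeing the data. A further 6, 11, 14 and 21 cells of the class lay in a cluster of 273 cells with 63 macrophage-like cells as its largest class, where the 6 cells of shNC replicate 1 had 3665 CPM and the others 225, 391 and 566. In the largest cluster Il1a stood at 966 and 901 against 1607 and 1426 CPM and Nlrp3 at 219 and 214 against 546 and 365 CPM, with no member called. The summed macrophage panel in microglia-like cells was 1109, 1151, 1367 and 1083 CPM, with all 6 markers detected and Lyz2 the most abundant; its part in these values was not tested.

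In T-like cells edgeR and DESeq2 each called 0 of 8 tested members (by edgeR, 3 had p under 0.05 before adjustment, and 907 of all 9800 genes had), where 0.0408% were called. Il1b stood at 137 and 223 against 133 and 92.1 CPM (−0.68, SE 0.24, adjusted p = 0.465), Il1rn had a fold of −0.72 (SE 0.25, adjusted p = 0.465) and Nlrp3 one of −0.80 (SE 0.34, adjusted p = 0.517). These 3 of 8 members did not overlap between the groups, against 40.8% of genes. Without the cells of the highest doublet scores the fold of Il1b was 0.05 (adjusted p = 0.964). Without shSELP replicate 1 Il1b and Il1r2 were called (−0.99, adjusted p = 4.89e-05, and 0.88, adjusted p = 0.000136), and without shNC replicate 1 Il1b was (−0.99, adjusted p = 0.00675). Il1r2 had a fold of 0.48 (SE 0.32, adjusted p = 0.690), which was −0.18 without shSELP replicate 2. That library held 183 of the 459 cells with a Cd4 UMI and no Foxp3 or Cd8 UMI, the group with most Il1r2 except in shSELP replicate 1. The part of these cells in the fold was not tested.

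In tumor-like cells Casp1 had the largest fold of the tested members and was not called by edgeR. It had 17.5 and 49.2 CPM in the shNC libraries and 93.8 and 107 CPM in the shSELP libraries, with no overlap and means of 33.3 ± 22.4 and 101 ± 9.50 (SD, n = 2). The log2 fold change was 1.60 (SE 0.38, adjusted p = 0.115 by edgeR, adjusted p = 0.0172 by DESeq2). By edgeR none of 6 tested members was called and 1 had an unadjusted p under 0.05, while DESeq2 called 1, Casp1. With the replicate block, with no filter or with thinning 1 member was called. Of all 9955 genes, 0.0603% were called and 1667 had an unadjusted p under 0.05. It was called by edgeR without shNC replicate 1 (adjusted p = 0.0230) and without shNC replicate 2 (2.44, adjusted p = 8.74e-13). Libraries of the other 5 members overlapped, so that 1 of 6 did not, against 50.7% of genes. The tumor-like cells differed in make-up between the groups: the share in the largest tumor cluster was 277 of 309, 181 of 220, 49 of 72 and 35 of 112 cells, the tumor marker H19 stood at 1166, 594, 294 and 391 CPM, and median UMIs in shSELP replicate 2 were 3560.5 against 15287, 15885.5 and 12258. In the largest cluster Casp1 stood at 17.4, 48.0, 99.9 and 81.5 CPM, with a fold of 1.45 (adjusted p = 0.306) in a test chosen after seeing the data. In the next cluster, which held 74 of the 112 cells of shSELP replicate 2, it stood at 19.8 and 77.6 against 44.3 and 146 CPM and overlapped. Casp4, its chromosomal neighbour, stood at 74.9 and 145 against 142 and 115 CPM and overlapped.

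Neutrophil-like cells were not compared between the groups in a fit of their own, since 3 of 4 libraries held under the 20 cells required for it. That minimum was not applied to their comparison with macrophage-like cells or to its interaction with shSELP. Their values, given above by library, overlapped between shNC and shSELP for Il1b, Il1a and Nlrp3. Il1rap had 0 UMIs in the shNC libraries, whose neutrophil-like cells held 14165 and 27292 UMIs of all genes. It stood at 69.6 and 99.7 CPM in shSELP, from 12 UMIs. At this depth a count of 0 does not set shNC below shSELP. The 25 cells of shSELP replicate 1 were the low library for Il1b, Il1a, Il1rn, Nlrp3 and Casp4. The same library stood apart in marker panels: the median of the macrophage panel in neutrophil-like cells was 6.09, 1.41, 63.4 and 5.26. That of the neutrophil panel was 983, 132, 2723 and 415. Of the macrophage panel, Lyz2 gave 82, 5, 562 and 122 UMIs and Tgfbi 0, 0, 4 and 2. Cell make-up and genotype cannot be told apart in these values.

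**Figure D3:**
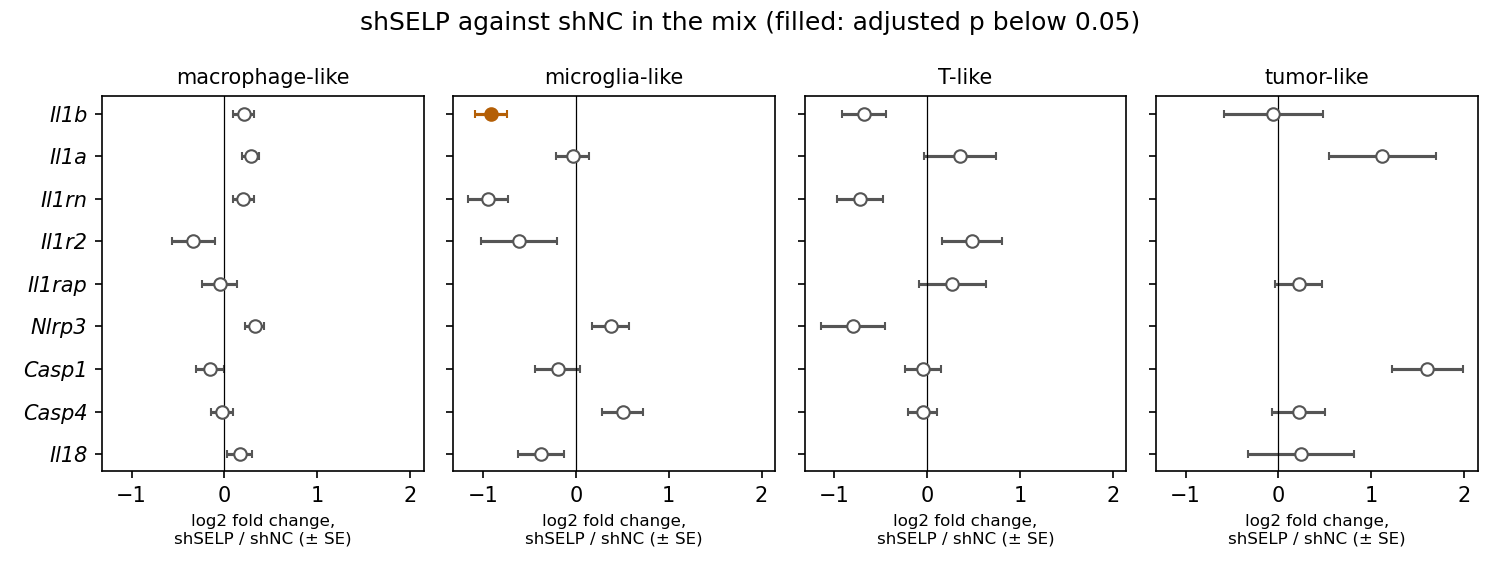
Log2 fold change of shSELP over shNC (points, bars ± SE) for members tested in 4 classes of the mix, with a filled point for an adjusted p below 0.05. Il1b in microglia-like cells (−0.91) is the 1 filled point, and Casp1 in tumor-like cells (1.60) has the largest fold.

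Whether the response to shSELP differed between classes was tested by interaction terms in edgeR. Between microglia-like and macrophage-like cells none of 8 members was called and 1 had an unadjusted p under 0.05, where 0.238% of 7143 genes were called; this fit was not run in DESeq2. The difference was −1.09 for Il1b (SE 0.73, adjusted p = 1) and −1.12 for Il1rn (SE 0.48, adjusted p = 0.775). This fit also held the sums of the neutrophil-like cells. Its SE of 0.73 for Il1b stood beside 0.17 and 0.11 in the separate fits of microglia-like and macrophage-like cells, with folds of −0.91 and 0.21. The fall of Il1b in microglia-like cells was therefore not shown to differ from the response in macrophage-like cells. With this SE the term could not settle whether it does. Between neutrophil-like and macrophage-like cells, a term that rests on the same 7, 11, 25 and 18 neutrophil-like cells, none of 8 was called and 1 had an unadjusted p under 0.05, where 0.182% of genes were called and the median difference over all genes was 0.62. The difference was 0.89 for Il1r2 (SE 0.39, adjusted p = 0.668) and −0.96 for Il1rn (SE 0.50, adjusted p = 0.752), and Il1rn was called without shSELP replicate 2.

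The CD11b+ set gave 1 library per group, so its ratios carry an exact interval (Clopper-Pearson, 95%) for counting error only and no test. Macrophage-like cells were 2305 of 2731 and 2487 of 2804 kept cells. Il1rn was the 1 member of 9 past a ratio of 1.5, where 18.6% of 11595 genes were past it in either direction (1441 higher and 713 lower, median ratio 1.08). It stood at 272 CPM in shNC and 440 CPM in shSELP, a ratio of 1.62 (1.55 to 1.70). Il1b stood at 4758 and 5379 CPM, a ratio of 1.13 (1.12 to 1.14), and Nlrp3 at 321 and 393 CPM, a ratio of 1.23 (1.17 to 1.28). The ratio was 1.11 (1.06 to 1.15) for Il1a, 0.887 (0.807 to 0.974) for Il1r2 and 0.889 (0.772 to 1.02) for Il18. Casp1 had a ratio of 1.01 (0.904 to 1.13), Casp4 one of 1.11 (1.001 to 1.22) and Il1rap one of 1.24 (0.821 to 1.89), and Il1r1 had 0 and 3 UMIs.

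The ratio of antagonist to ligand was higher in the shSELP library in each of the states given, by differing amounts. In all macrophage-like CD11b+ cells there were 5.71 Il1rn UMIs per 100 Il1b UMIs in shNC and 8.17 in shSELP, on either side of the 6.96 to 7.21 of the mix. In the Ly6c2/Ccr2 state Il1rn stood at 403 and 980 CPM (368 and 367 cells), a ratio of 2.43 (2.16 to 2.74), or 5.44 and 11.8 per 100 Il1b UMIs. The same state of the mix went the other way, at 929 ± 19.5 CPM in shNC and 856 ± 21.0 CPM in shSELP (SD, n = 2). The ratio of Il1rn was 1.63 (1.47 to 1.80) in the Dnase1l3/Ms4a7 state, 1.63 (1.41 to 1.89) in the Gpnmb state and 1.01 (0.828 to 1.24) in the Nos2/Inhba state. Per 100 Il1b UMIs there were 4.77 (shNC) and 6.85 (shSELP) Il1rn UMIs in the Dnase1l3/Ms4a7 state. The values were 6.22 and 8.53 in the Gpnmb state and 9.33 and 11.9 in the Nos2/Inhba state. In the Nos2/Inhba state Il1b was lower in shSELP, at 10546 against 8347 CPM (0.791, 0.743 to 0.843, 51 and 75 cells), while its ratio lay between 1.12 and 1.19 in the other 3 states.

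Microglia-like CD11b+ cells (121 and 87) did not show the lower Il1b of the mix. Il1b stood at 563 CPM in shNC and 668 CPM in shSELP, a ratio of 1.19 (1.02 to 1.38), or 1.70 with the stricter gate. Il1rn was the 1 of 7 members past 1.5, at 1.64 (0.996 to 2.70) from 33 and 37 UMIs, where 31.7% of 7006 genes were past it. Il1a stood at 547 and 545 CPM (0.996, 0.844 to 1.17), in shNC a little below Il1b of the same cells. The sets differ in day and in sorting as well as in replicate, and these cannot be told apart. CD11b+ neutrophil-like cells numbered 10 and 2 and were given no ratio; Il1b stood at 8170.4 and 8669 CPM in them and Il1r2 at 1318 and 1300.4 CPM. Il1rn stood at 316 and 1734 CPM, from 6 and 4 UMIs.

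**Figure D4:**
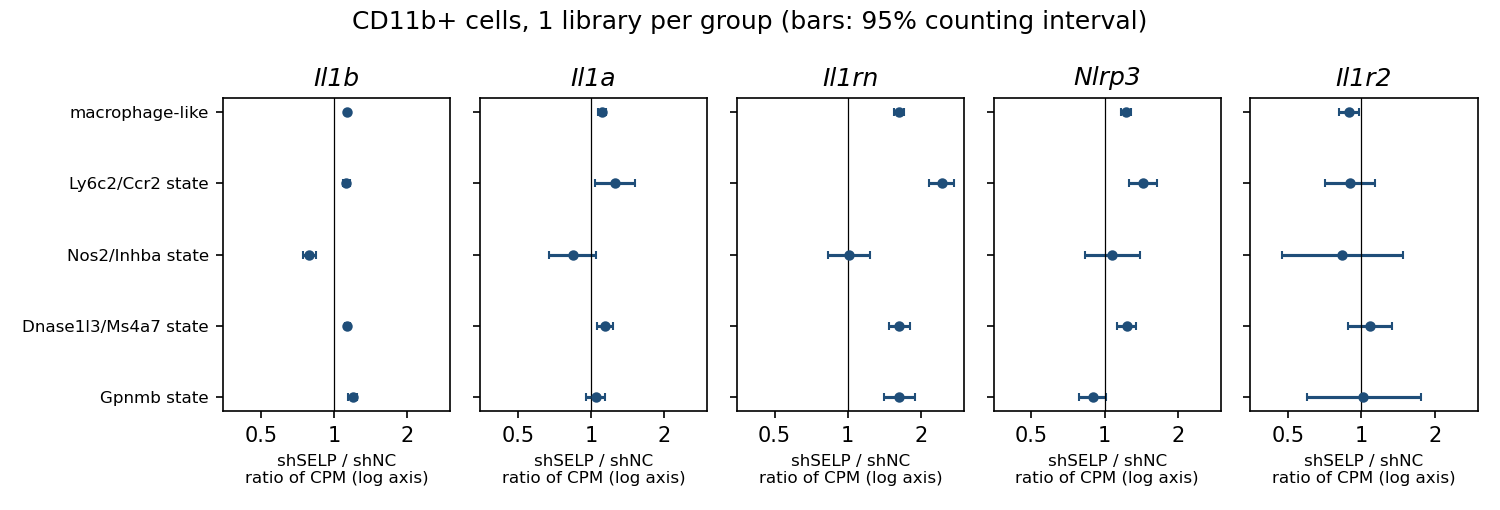
Ratio of CPM, shSELP over shNC, for 5 members in macrophage-like CD11b+ cells and in 4 of their states (log axis, bars for the 95% counting interval, 1 library per group). Il1rn has the highest ratio in the Ly6c2/Ccr2 state (2.43), and Il1b is below 1 in the Nos2/Inhba state (0.791).

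Other genes of the pathway were taken from 4 lists: relatives of the IL-1 family, inflammasome components, priming receptors with MyD88 signalling, and targets of IL-1 and NF-kB. With shSELP, edgeR called none of them in macrophage-like cells (0 of 4, 14, 18 and 12 tested, with 0, 1, 3 and 4 at an unadjusted p under 0.05), none in T-like cells (0 of 5, 8, 16 and 9, with 2, 0, 1 and 3) and none in tumor-like cells (0 of 3, 7, 17 and 10, with 1, 0, 2 and 3). In microglia-like cells 1 of 16 priming genes was called, and 0 of 1, 9 and 7 of the other lists (1, 0 and 1 at an unadjusted p under 0.05). At that p stood 898 of all 6913 genes in microglia-like cells, and in the other classes the numbers given above. The called gene was Tlr2, a receptor for bacterial lipopeptides whose signal induces Il1b. It stood at 562 and 587 against 332 and 350.0 CPM (−0.80, SE 0.17, adjusted p = 0.0478). The call was lost without shNC replicate 2 (adjusted p = 0.0698), shSELP replicate 1 (adjusted p = 0.301) or shSELP replicate 2 (adjusted p = 0.0950), and in the largest microglia cluster the fold was −0.19. In tumor-like cells Lcn2, a target of IL-1 and NF-kB named here after its values were seen, stood at 2.00 and 42.3 against 565 and 713 CPM (4.91, SE 0.79, adjusted p = 0.0678) and was not called.

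Between classes the lists went in several directions. In neutrophil-like against macrophage-like cells the IL-1 family had 2 genes higher and 1 lower of 3, inflammasome components 1 higher and 3 lower of 10, priming genes 0 higher and 2 lower of 17 and targets 3 and 3 of 11, beside 497 higher and 1265 lower of all 7143 genes. Il1f9, the mouse gene for IL-36 gamma, had 24 UMIs in 61 neutrophil-like cells and 6 in 3394 macrophage-like cells. Txnip, which binds NLRP3, was higher in neutrophil-like cells (3.53, SE 0.24, adjusted p = 3.15e-23), and Pycard, the adaptor between sensor and caspase, was lower (−2.22, SE 0.41, adjusted p = 1.01e-05), as was the pore protein Gsdmd (−1.78, SE 0.57, adjusted p = 0.0157). Among targets Lcn2 was higher (8.72, SE 0.55), although the 11 neutrophil-like cells of shNC replicate 2 had none, and Cxcl1, a neutrophil chemokine, lower (−3.05, SE 0.43).

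In microglia-like against macrophage-like cells the counts were 0 higher and 1 lower of 3, 4 and 2 of 10, 0 and 5 of 17, and 2 and 5 of 11, beside 1679 and 1578 of all 7143 genes. Nek7, a partner of NLRP3, was higher in microglia-like cells (1.61, SE 0.15) and Mefv, the pyrin sensor, lower (−4.38, SE 0.31). Irak3, an inhibitor of MyD88 signalling, was lower too (−2.89, SE 0.36). Among targets Tnf was higher (1.62, SE 0.27), while Cxcl1 (−5.60, SE 0.33), Saa3 (−4.50, SE 0.28) and Ptgs2 (−2.38, SE 0.27) were lower beside Il1b. Interactions with shSELP gave 0 calls in the lists between neutrophil-like and macrophage-like cells (3 genes at an unadjusted p under 0.05) and 1, Cxcl1, between microglia-like and macrophage-like cells (3 at an unadjusted p under 0.05). In CD11b+ cells the genes past a ratio of 1.5 were, for the 4 lists in the same order, 1 of 4, 3 of 14, 2 of 18 and 1 of 12 in macrophage-like cells and 0 of 1, 5 of 11, 5 of 15 and 2 of 8 in microglia-like cells, beside 18.6% and 31.7% of all genes. The 1 target past it in macrophage-like cells was Saa3, an acute-phase gene named here after its values were seen, at 34.2 and 167 CPM (4.89, 4.37 to 5.48).

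The genes most like Il1b in level were sought among 2699 genes over 36 points, which were 9 gated groups in 4 libraries. The highest Spearman correlations were those of Pde4b (0.942), Il1rn (0.932), Ccdc71l (0.918), Prdx5 (0.908) and Plaur (0.898). Among the other members the values were 0.889 for Nlrp3, 0.662 for Il1r2, 0.523 for Il1a, 0.342 for Casp4 and 0.335 for Casp1. The points share libraries and their depth, and the values are a description.

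In the mouse genome (GRCm38, GENCODE M21) members lie in neighbouring pairs. Il1b (chr2:129364570-129371139) and Il1a (chr2:129299610-129309972) are on the minus strand with 54597 bases between them, and Il1rn (chr2:24336853-24351494, plus strand) is elsewhere on the same chromosome. Il1r2 (chr1:40074079-40125231) and Il1r1 (chr1:40225080-40317257) are on the plus strand with 99848 bases between them. Casp1 (chr9:5298517-5307265) and Casp4 (chr9:5308828-5336783) are on the plus strand with 1562 bases between them, and Il18 (chr9:50554827-50581840, plus strand) is farther along. Nlrp3 (chr11:59541568-59566956) and Il1rap (chr16:26581704-26730117) are on the plus strand. The antisense gene Il1bos overlaps Il1b and Gm14023 overlaps Il1a, both on the other strand. Gm38070 overlaps Il1r1 and Gm37347 overlaps Il1r2 on the same strand, so reads there cannot be told apart by strand. Il1b and Il1a differed in their order over classes and states. Over all libraries together, Il1r2 was found mostly in macrophage-like cells (53.0% of its UMIs) while Il1r1 was found mostly in vascular and stromal cells. Casp1 and Casp4 both had UMIs in all 5 classes and had their highest mean in the Ly6c2/Ccr2 state of macrophage-like cells.

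The 250 bases before a transcript start were searched for 5 motifs on both strands, in the RefSeq promoters of all 10 members. The motifs were NF-kB (10 letters), C/EBP (TTGNGNAA), AP-1 (TGANTCA), PU.1 (GAGGAA) and the TATA box (TATAAA). At least 1 promoter held C/EBP in 4 members (Il1a, Il1b, Il1rn and Nlrp3), NF-kB in 3 (Casp4, Il1r1 and Nlrp3), PU.1 in 3 (Casp1, Il1a and Nlrp3), TATAAA in 3 (Il18, Il1a and Il1b) and AP-1 in 2 (Il1a and Il1rn). Of 32851 promoters of this length, 11.7% held C/EBP, 7.25% NF-kB, 23.3% PU.1, 12.4% TATAAA and 6.75% AP-1. Several members have more than 1 promoter, which raises their chance of a match. For each of the 4 members with TTGNGNAA, the motif found in most members, the promoter with the match closest to the start is shown. A match is a description of letters. They are, from GRCm38.p6, Il1b (chr2:129371140-129371389, minus strand), Il1a (chr2:129309973-129310222, minus strand), Il1rn (chr2:24345041-24345290, plus strand) and Nlrp3 (chr11:59542436-59542685, plus strand), 5′ to 3′, with all motif matches in capitals.
Il1b: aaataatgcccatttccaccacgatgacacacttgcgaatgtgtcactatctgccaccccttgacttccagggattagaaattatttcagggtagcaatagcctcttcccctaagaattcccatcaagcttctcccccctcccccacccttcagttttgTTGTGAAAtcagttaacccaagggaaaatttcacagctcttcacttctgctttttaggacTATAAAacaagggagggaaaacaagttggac
Il1a: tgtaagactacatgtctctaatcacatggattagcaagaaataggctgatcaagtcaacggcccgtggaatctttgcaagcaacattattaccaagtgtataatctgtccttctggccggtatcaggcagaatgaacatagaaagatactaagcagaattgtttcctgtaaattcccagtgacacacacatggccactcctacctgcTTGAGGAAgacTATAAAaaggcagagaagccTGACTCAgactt
Il1rn: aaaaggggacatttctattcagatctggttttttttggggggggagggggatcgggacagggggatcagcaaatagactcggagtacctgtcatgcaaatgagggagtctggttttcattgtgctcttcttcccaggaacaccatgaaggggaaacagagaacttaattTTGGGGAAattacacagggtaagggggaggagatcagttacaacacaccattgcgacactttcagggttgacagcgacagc
Nlrp3: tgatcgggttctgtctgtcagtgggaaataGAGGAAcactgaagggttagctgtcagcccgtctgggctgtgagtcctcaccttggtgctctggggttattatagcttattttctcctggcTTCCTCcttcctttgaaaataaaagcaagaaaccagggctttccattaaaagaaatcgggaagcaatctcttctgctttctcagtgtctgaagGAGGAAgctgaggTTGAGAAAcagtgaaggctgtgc
The capitals in Il1b mark C/EBP 91 bases and TATAAA 31 bases before the start. In Il1a they mark C/EBP at 43 bases, which overlaps PU.1 at 41, then TATAAA at 32 and AP-1 at 12. In Il1rn they mark C/EBP at 81 bases. In Nlrp3 they mark PU.1 at 220, 129 (other strand) and 36 bases and C/EBP at 23.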

How the data were processed

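The submitters' processing notes name Cell Ranger 1.3 and mm10; the deposited tables hold raw UMI counts per gene and cell, made by the authors with no normalization. Cells with under 500 genes or over 10% mitochondrial counts were left out (446 of 9172 in the mix, 189 of 5724 in the CD11b+ set). No deposited cell reached 5% mitochondrial counts, so the limit on genes made all of these exclusions. A cell went to the class with the highest mean of scaled marker levels where that was at least 0.15 and led by at least 0.05; macrophage-like cells went to a state where its z was at least 0.5 and led by 0.25. UMIs were summed per library and class. Tests used the two-sided quasi-likelihood test of edgeR 4.0.16 after its own filter and TMM scaling (Benjamini-Hochberg over all genes tested, threshold 0.05) in R 4.3.3 with limma 3.58.1; classes were compared in 1 fit with library as a block. These p-values measure only the spread between libraries. With 1 library per group (CD11b+), ratios carry exact conditional (Clopper-Pearson) 95% intervals, for genes of at least 10 UMIs. Classes under 20 cells in a library were not compared between shSELP and shNC in a ratio or a fit of their own. The comparison of neutrophil-like with macrophage-like cells and its interaction did not apply this minimum. Called means an adjusted p under 0.05. Alternatives were DESeq2 1.42.0, no filter on low counts, leaving out each library, the replicate number as a block, a stricter gate (0.25 and 0.1), a Leiden cluster-majority gate (scanpy 1.11.5, leidenalg 0.10.2, igraph 0.11.9), leaving out the top 5% of doublet scores, thinning to 2000 UMIs, a stricter cell filter and, chosen after seeing the data, tests within the largest clusters of a class. Python 3.11.15, numpy 2.4.6, scipy 1.17.1, pandas 2.3.3 and matplotlib 3.10.9 were used. The 10 members are given whatever their value. From the 4 lists (IL-1 family, inflammasome components, priming and MyD88 signalling, targets of IL-1 and NF-kB) at most 3 genes called per direction and comparison are named, and the 5 genes most like Il1b by Spearman correlation of log2(CPM + 1), among genes whose mean was 50 CPM or more. Members and lists were chosen with earlier results of these data known. The code was tested on simulated data.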

Additional observations from a re-analysis of the deposited data

Results flagged for a closer look

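The response of Cxcl1, a neutrophil chemokine and a target of IL-1, differed between microglia-like and macrophage-like cells by the interaction term: −2.44 on the log2 scale (SE 0.58, adjusted p = 0.0157, edgeR). Microglia-like cells stood at 6.69 and 50.5 CPM in shNC and 4.18 and 9.001 in shSELP, from 65 UMIs in all, and macrophage-like cells at 627 and 637 against 673 and 623. The value rests on shNC replicate 2: without it the difference was −0.27 (adjusted p = 1). Without shSELP replicate 1 it was −1.83 (adjusted p = 1) and with the cluster gate −0.19 (adjusted p = 0.850).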

How the results depend on the processing

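Of 451 fold changes under alternatives, over 56 results, 391 kept their direction and side of the threshold, 36 lost a call, 21 gained one and 3 reversed. The reversals were Il1b in T-like cells (0.051 without the top doublet scores), Il1r2 in T-like cells (−0.18 to 0.96 over libraries left out) and Il18bp between microglia-like and macrophage-like cells (0.092 with the cluster gate). Leaving out 1 library gave between 0 and 1 members called with shSELP in macrophage-like cells, 1 and 3 in microglia-like, 0 and 2 in T-like and 0 and 1 in tumor-like cells, 1 and 3 for neutrophil-like and 3 and 4 for microglia-like against macrophage-like cells, and 0 and 1 for the neutrophil interaction. Without shSELP replicate 2 Il1b was not among the members called in microglia-like cells. In these cells, with 1 called at first, 2 were called with no filter, with the replicate block or without top doublet scores. With the cluster gate, with thinning or, chosen after seeing the data, within either cluster 0 were called. In T-like cells no filter gave 2. In tumor-like cells DESeq2, no filter, the replicate block and thinning each gave 1. In microglia-like CD11b+ cells the cluster gate put 2 past 1.5. The cause was not tested. TMM scaling of the CD11b+ macrophage-like ratios gave 1.52 for Il1rn and 1.06 for Il1b. The paired fit rests on replicate numbers whose deviations did not correlate (0.000554, 0.0510, 0.0434 and −0.0142 in macrophage-like, microglia-like, T-like and tumor-like cells).

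With 2 libraries per group of pooled mice, and 1 in the CD11b+ set, a small change can be missed. A lone library left in a group is assumed to vary like the others. Neutrophil-like cells were too few for a comparison between groups in a fit of their own. Their alternatives cover the comparison with macrophage-like cells and the interaction term, and the cluster gate gave 0 of them. Selp, Il1r1 and Il1rap were near the limit of depth. RNA counts do not measure cleavage or secretion of IL-1 beta or IL-18.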

Other observations

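Some members were abundant in cells outside the 5 classes. Il1b stood at 11028 CPM in 18 basophil-like cells (683 UMIs) and at 7748, 3174, 4996 and 5586 CPM in the 19, 17, 17 and 20 cDC2-like cells of the mix, the type 2 conventional dendritic cells. The decoy Il1r2 stood at 1783, 1054, 842 and 1630.1 CPM in the same cDC2-like cells, which were 0.837% of cells and held 8.70% of its UMIs. Il18 stood at 61.8 CPM in oligodendrocyte-like cells (45 UMIs) and 90.5 in astrocyte-like cells (17 UMIs). These values were not compared between the groups.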
